A study of Mus musculus with 1 sample.

Results

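Intermediate filaments are rope-like polymers of the cell skeleton, and in the nucleus their relatives, the lamins, form a meshwork under the inner nuclear membrane. The genes described here are 9 non-keratin members of this family, chosen by symbol from the deposited table of 1 mouse fibroblast culture. They are 9 of 23386 genes in the table, and each had a single row. Of these, 6 encode cytoplasmic proteins (Vim, Des, Nes, Gfap, Prph and Synm) and 3 encode lamins (Lmna, Lmnb1 and Lmnb2). The library labelled normal fibroblast was grown in culture from normal pancreas. Its strain label gives a mixed background (C57BL/6 and BALB/c), and its genotype label reads tf1acre-;KrasWT;Tgfrb2flox/flox. The series by its title and design set such cells beside cancer-associated fibroblasts, the fibroblasts of tumour stroma, but 1 library only was analysed here and no comparison between conditions was made. The value column of its table carries a CAF code, which goes against the label. The table summed to 52494688 recovered reads. Having no replicate, the library gives intervals (95%, exact) that cover counting error only, and no test was possible.

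Filament proteins share a central rod of coiled helix. Vimentin is the filament protein of mesenchymal cells, desmin that of muscle, glial fibrillary acidic protein that of astrocytes and some glia, and peripherin that of peripheral neurons. These 4 are type III proteins, which can form filaments with themselves or with each other. Nestin and synemin are much longer proteins that join filaments of vimentin or desmin. In pancreas, desmin, nestin and glial fibrillary acidic protein are used together with vimentin to recognise stellate cells, which store vitamin A. Of the lamins, Lmna encodes lamin A and lamin C by alternative splicing, and Lmnb1 and Lmnb2 encode the B-type lamins, found in most dividing cells.

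Because the 9 genes are related, their transcripts (GENCODE M21, GRCm38) were compared to see how far reads of 1 gene could be taken for another. The longest identical run between any pair joined Des and Prph and had 36 bases.
Des and Prph: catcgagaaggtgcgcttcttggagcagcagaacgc
Vim shared at most 20 identical bases with any other member. No source used here gives the read length, so windows of 25, 35 and 50 bases of each gene's longest matched transcript were sought, on both strands, in the transcripts of all other genes. For Vim, 5 of 2159 windows of 35 bases recurred, all in the keratin gene Krt75, which had 5 reads in the table, and none of 50 bases did. No window of 35 bases of Nes, Gfap, Lmna or Lmnb1 recurred in another gene. For Prph the count was 3 of 1829 and for Lmnb2 20 of 3336. Des (190 of 2994) and Synm (395 of 7784) owed nearly all of theirs to genes that overlap them on the opposite strand. The antisense gene Gm15179 covers 220 exonic bases of Des and had 1 read, while Ttc23, with 613 reads, covers 84 exonic bases of Synm and Gm45102 covers 426. No source used here says whether the counting used strand.

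The vimentin gene stood far above the rest. Vim (GRCm38 chromosome 2, 13573927 to 13582826, plus strand) had 150069 reads, or 2859 CPM (counts per 1000000 recovered reads; 2844 to 2873, exact Poisson), and was at rank 13 of 20559 protein-coding genes. Per length, as reads per 1000 exonic bases scaled to 1000000 over all genes (TPM), it had 1089 TPM (1084 to 1095), against a median of 2.19 TPM over protein-coding genes. Vim gave 96.8% of the reads of the 6 cytoplasmic genes (exact Clopper-Pearson interval 96.7% to 96.9%) and 85.1% of those of all 9 genes. Together the 9 genes held 0.336% of the library.

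The muscle filament gene Des and the nestin gene Nes followed among the cytoplasmic genes. Des (chromosome 1, 75360329 to 75368579, plus strand) had 3732 reads, or 71.1 CPM (68.8 to 73.4) and 34.2 TPM (33.1 to 35.3). Nes (chromosome 3, 87971078 to 87980451, plus strand) had 1184 reads, or 22.6 CPM (21.3 to 23.9) and 6.35 TPM (6.00 to 6.73). Both lay above the median of protein-coding genes, Des at rank 2358 and Nes at rank 8038 of 20414 coding genes with a length. That median counts genes with few or no reads. Among coding genes with at least 10 reads it was 21.4 CPM, a level within the interval of Nes. Per exonic base Vim was 31.8 times Des (30.8 to 32.9) and 171 times Nes (162 to 182), and Des was 5.39 times Nes (5.04 to 5.76). These ratios move with the definition of length. With the longest transcript matched by accession, a setting chosen after the data were seen, Vim was 55.5 times Des and 354 times Nes, and per coding base it was 40.5 times Des and 507 times Nes. Des was 12.5 times Nes per coding base (11.7 to 13.4).

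The other 3 cytoplasmic genes were below the median of coding genes, per length and by reads (4.71 CPM). Synm (chromosome 7, 67730160 to 67759742, minus strand) had 58 reads, or 1.10 CPM (0.839 to 1.43). Prph (chromosome 15, 99055174 to 99058978, plus strand) had 24 reads, or 0.457 CPM (0.293 to 0.680). Gfap (chromosome 11, 102887336 to 102900912, minus strand) had 7 reads, or 0.133 CPM (0.0536 to 0.275), so that its lower bound fell below the floor of 3 reads (0.0571 CPM). Per length their order was Prph at 0.413 TPM, Synm at 0.252 TPM and Gfap at 0.0571 TPM. Prph and Synm did not differ beyond counting error per exonic base, with a ratio of 1.64 (0.976 to 2.68), but did with the matched transcripts, at 1.74 (1.03 to 2.84). Synm was 4.41 times Gfap per exonic base (2.01 to 11.4), 2.81 times with the matched transcripts (1.28 to 7.29) and 2.49 times per coding base (1.13 to 6.46). By reads alone Synm came before Prph, and the exon union is 7933 bases long for Synm and 1999 for Prph. Since some reads of Ttc23 and Synm cannot be told apart without strand, the level of Synm is uncertain. In a bulk culture, few cells with a transcript and little of it in every cell cannot be told apart.

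**Figure D1:**
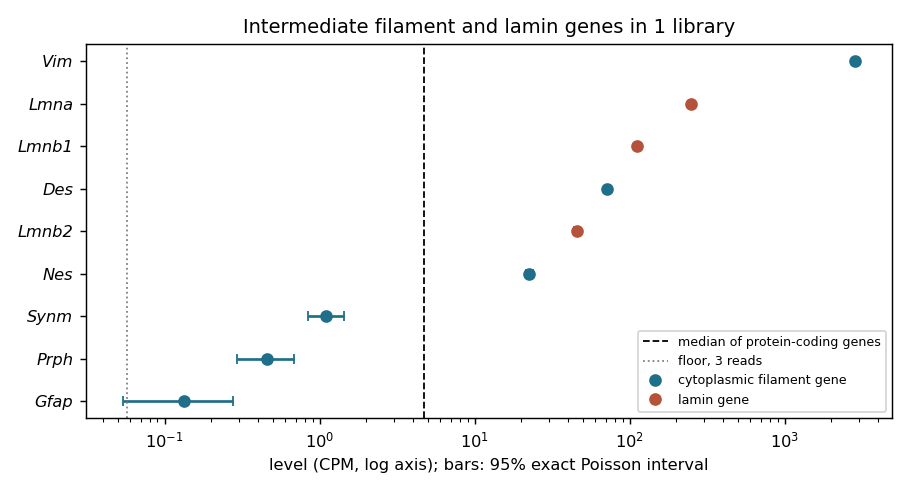
Level of each of the 9 genes in CPM (log axis), with exact Poisson 95% intervals; blue points are cytoplasmic filament genes, red points lamin genes, the dashed line is the median of protein-coding genes and the dotted line the floor of 3 reads. Vim is at 2859 CPM, Lmna at 248 CPM, and Synm, Prph and Gfap lie left of the median line.

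All 3 lamin genes were well represented. Lmna (chromosome 3, 88480147 to 88509956, minus strand) had 13029 reads, or 248 CPM (244 to 252) and 76.8 TPM (75.5 to 78.2). Lmnb1 (chromosome 18, 56707813 to 56753424, plus strand) had 5872 reads, or 112 CPM (109 to 115) and 68.3 TPM (66.5 to 70.0). Lmnb2 (chromosome 10, 80901203 to 80918245, minus strand) had 2388 reads, or 45.5 CPM (43.7 to 47.4) and 19.2 TPM (18.4 to 19.97). Among coding genes with a length, Lmna was at rank 829, Lmnb1 at rank 1001 and Lmnb2 at rank 4161. Lmnb1 exceeded Lmnb2 3.56 times per exonic base (3.39 to 3.73), and Lmna exceeded Lmnb2 4.01 times (3.83 to 4.19).

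How far the A-type gene stood above the main B-type gene depended on the length used. Of the lamin reads, 61.2% were from Lmna (60.5% to 61.9%), 27.6% from Lmnb1 (27.0% to 28.2%) and 11.2% from Lmnb2 (10.8% to 11.6%). Per exonic base the Lmna share was 46.8%, against 41.5% for Lmnb1, and their ratio was 1.13 (1.09 to 1.16). Over the longest transcript matched by accession the ratio was 1.999 (1.94 to 2.06), and over coding bases 1.93 (1.87 to 1.99). The union of annotated Lmna exons is 5838 bases long, whereas the longest matched transcript of Lmna is 3156 bases long. For Lmnb1 the same lengths are 2962 and 2843 bases. The order Lmna, Lmnb1, Lmnb2 held under all 3 lengths and by reads.

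**Figure D2:**
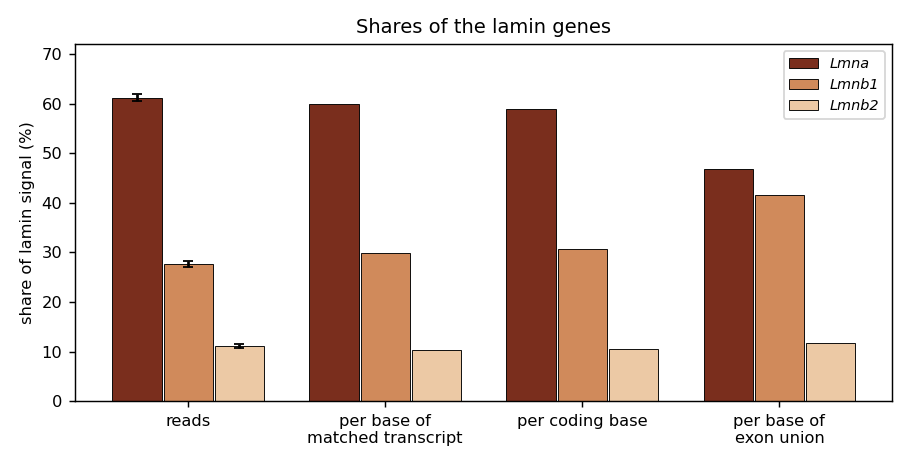
Share of the lamin signal (percent) held by Lmna, Lmnb1 and Lmnb2, by reads and per base under 3 definitions of length; bars on the read shares are exact 95% intervals, smaller than 1 percentage point to either side. Lmna holds 61.2% by reads and 46.8% per base of the exon union.

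The Lmna row joins 3 accessions, so lamin A and lamin C were not measured apart. Their coding ends show how the products differ. Lamin A, like the B-type lamins, ends in a cysteine codon followed by 3 further codons, the signal for attachment of a farnesyl group, which lamin C lacks. The last 30 coding bases before the stop are given with the last 4 codons in capitals, from GENCODE M21 (GRCm38).
Lmna, 665 codons: agccagagctcccagaacTGCAGCATCATG
Lmna, 574 codons: catcaccaccgtgtgagtGGCAGCCGCCGC
Lmnb2, 596 codons: aggactacctcaaggggcTGCCGACTGATG
The transcript of 574 codons and a further one of 462 codons had the same last 30 coding bases. RNA of the enzymes that act on the cysteine end was found. All 6 genes on the list had at least 10 reads, as did 67.6% of all protein-coding genes. Their median was 21.7 TPM. Zmpste24, the protease that trims prelamin A, had 33.1 TPM (6872 reads). The farnesyltransferase subunit genes Fnta and Fntb had 34.7 TPM and 10.4 TPM. Rce1, which removes the last residues after lipid attachment, had 25.4 TPM, and the methyltransferase gene Icmt 17.99 TPM.

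Placed per length, the 9 genes ran in the order Vim, Lmna, Lmnb1, Des, Lmnb2, Nes, Prph, Synm and Gfap, with the union of exons, the matched transcript or the coding bases as length. Per exonic base Vim was 14.2 times Lmna (13.9 to 14.4), and Lmnb1 was 1.99 times Des (1.91 to 2.08). Des was 1.78 times Lmnb2 (1.69 to 1.88), and Lmnb2 was 3.02 times Nes (2.81 to 3.24). Per coding base Lmnb1 was 1.25 times Des (1.20 to 1.31) and Lmnb2 was 5.38 times Nes (5.01 to 5.77). The gap between Nes and Prph was 15.4 times (10.3 to 24.1), an interval that includes the ratio of Vim to Lmna. Per coding base it was 13.4 times (8.97 to 21.0), and Vim was 16.7 times Lmna. Of the 8 neighbouring pairs, the interval of the ratio included 1 only for Prph and Synm when exon unions were used. Per coding base that ratio was 1.28 (0.761 to 2.09). Over the 9 genes 8 had at least 10 reads, Gfap being the exception, beside 67.6% of protein-coding genes. The median of the 9 genes, held by Lmnb2, was 19.2 TPM, and the median of protein-coding genes was 2.19 TPM.

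**Figure D3:**
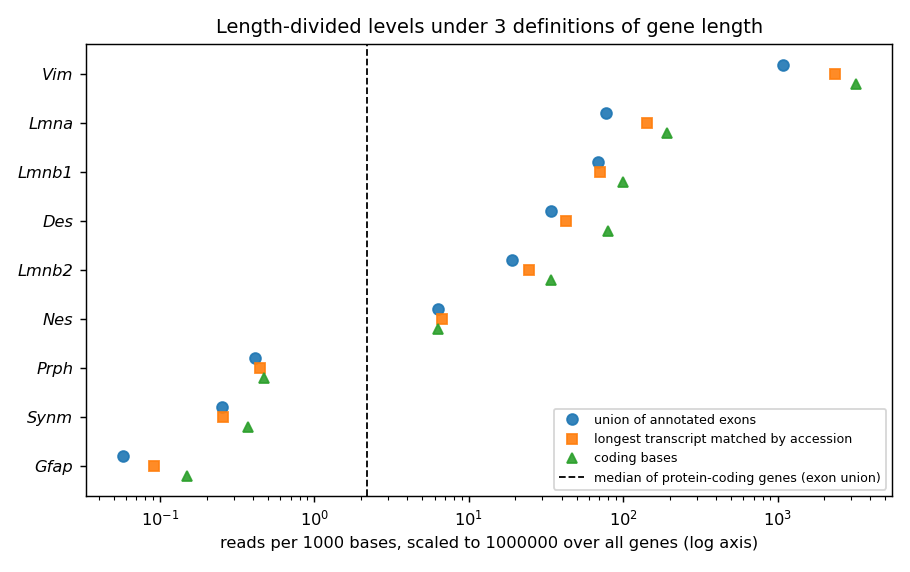
Length-divided level of each gene (reads per 1000 bases, scaled to 1000000 over all genes, log axis) with length taken as the exon union (circles), the longest transcript matched by accession (squares) or coding bases (triangles). The order of the 9 genes is the same for the 3 symbols, from Vim at 1089 TPM to Gfap at 0.0571 TPM for the exon union.

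Promoters were looked up for a feature the levels could be read beside, and the 2 genes that share the TATAAA word had very different levels. Sequences of 300 bases, 250 before to 50 after the start, were taken from RefSeq (GRCm38.p6). Of the 9 genes 8 matched, all but Lmnb1, and Lmna and Lmnb2 have 2 starts each. Both strands were searched. The TATA box was spelled TATAAA. Its upstream companion was spelled CCAAT. The word of the factor Sp1 was GGGCGG and that of AP-1 factors was TGANTCA. The E-box was spelled CANNTG, and the CArG box is the serum response factor word. No match overlapped another in these promoters. TATAAA was found for Vim, 32 to 27 bases before the start, and for Prph, 31 to 26 bases before the start. It occurs in 13.6% of all 32851 promoters in the table. CCAAT was found 2 times for Vim, 1 time for Synm and at 1 start of Lmna, and occurs in 37.4% of promoters. Matches to TATAAA or CCAAT, on either strand, are in capitals.
Vim, chr2:13574061-13574360, plus strand: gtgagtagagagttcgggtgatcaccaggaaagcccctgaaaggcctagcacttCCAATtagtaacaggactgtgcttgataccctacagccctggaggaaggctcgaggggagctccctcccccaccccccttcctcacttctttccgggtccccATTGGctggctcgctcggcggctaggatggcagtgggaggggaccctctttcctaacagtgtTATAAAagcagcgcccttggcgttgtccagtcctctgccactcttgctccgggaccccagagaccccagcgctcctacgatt
Prph, chr15:99054924-99055223, plus strand: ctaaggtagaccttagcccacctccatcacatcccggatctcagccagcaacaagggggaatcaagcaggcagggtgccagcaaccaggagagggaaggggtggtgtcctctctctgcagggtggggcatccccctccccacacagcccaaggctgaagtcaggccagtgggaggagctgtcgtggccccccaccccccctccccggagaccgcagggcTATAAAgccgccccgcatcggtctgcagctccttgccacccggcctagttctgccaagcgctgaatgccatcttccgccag
Vim had 1089 TPM and Prph 0.413 TPM. Whether the word bears on the level was not tested. GGGCGG, found in 35.7% of promoters, was present for Des, Nes, Lmna, Lmnb2 and Prph. The AP-1 word, in 7.81% of promoters, was found at 1 start of Lmna, and the E-box, in 72.3%, for Des, Synm and Lmnb2. No match to the CArG box, held by 1.63% of promoters, was found for any of the matched genes, which says only that these letters are not in these windows.

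Most other filament genes were scarce. The remaining intermediate filament list, with 51 keratins, the neurofilament genes and a few others, had 18 of 60 genes with at least 10 reads, beside 67.6% of protein-coding genes. The count was 53 at 1 read and 11 at 50 reads, limits at which the share of all protein-coding genes was not taken. Of protein-coding genes, 43.0% had fewer reads than the 58 of Synm. Its median was 0.0487 TPM, and 7 keratins had 0 reads, which allows up to 0.0571 CPM each by the floor of 3 reads (0.0703 CPM as the upper end of the exact Poisson interval). Krt18 and Krt19, keratins of simple epithelia, had 14.9 TPM and 10.8 TPM, while Krt8 had 1.88 TPM and Krt7 2.06 TPM. All 51 keratins together had 2636 reads. Iffo2, which encodes a filament-related protein, had 11.96 TPM, and Sync, whose protein syncoilin binds desmin in muscle, had 7.37 TPM. The neurofilament genes Nefm, Nefh and Nefl had 24, 9 and 4 reads, and Ina, the alpha-internexin gene, 17 reads.

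Genes whose proteins link filaments to other structures covered a wide range. At least 10 reads were found for all 15 members, beside 67.6% of protein-coding genes, and their median was 29.9 TPM. Plec, the plectin gene, which ties vimentin to actin, microtubules and adhesions, had 85.1 TPM (853 CPM). Macf1 and Dst, giant linkers of actin and microtubules, had 67.4 TPM and 29.9 TPM. Cryab, a small heat shock chaperone of desmin and vimentin filaments, had 205 TPM, and Flnc, a filamin of muscle, 149 TPM. Dsp, the desmoplakin gene, and Evpl, the envoplakin gene, plakins that join keratins in epithelia, had 0.463 TPM and 0.178 TPM, whereas the periplakin gene Ppl had 9.85 TPM. Dtna, the alpha-dystrobrevin gene, had 0.313 TPM.

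Proteins that bind the lamina were likewise well represented at the level of RNA. Their median was 32.1 TPM, and 23 of 24 genes reached 10 reads, beside 67.6% of protein-coding genes. Banf1, the barrier-to-autointegration factor gene, had 182 TPM, Emd, the emerin gene, 109 TPM, and Tmpo, the gene of the LAP2 proteins, 89.1 TPM. Lbr, the lamin B receptor gene, had 56.1 TPM. Of the complex that joins the lamina to the cytoskeleton, Syne2 had 56.1 TPM, Sun2 26.9 TPM, Sun1 26.4 TPM and Syne1, summed over 2 rows, 3.02 TPM. Mlip, a lamin-interacting gene of muscle, had 1 read. Among kinases, phosphatases and proteases that act on filaments or lamins, all 16 reached 10 reads, beside the same 67.6% (median 31.3 TPM). Cdk1, the mitotic kinase that phosphorylates lamins and vimentin, had 97.7 TPM, Capn2, a calpain gene, 209 TPM, and Casp6, the caspase that cuts lamin A, 2.58 TPM.

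**Figure D4:**
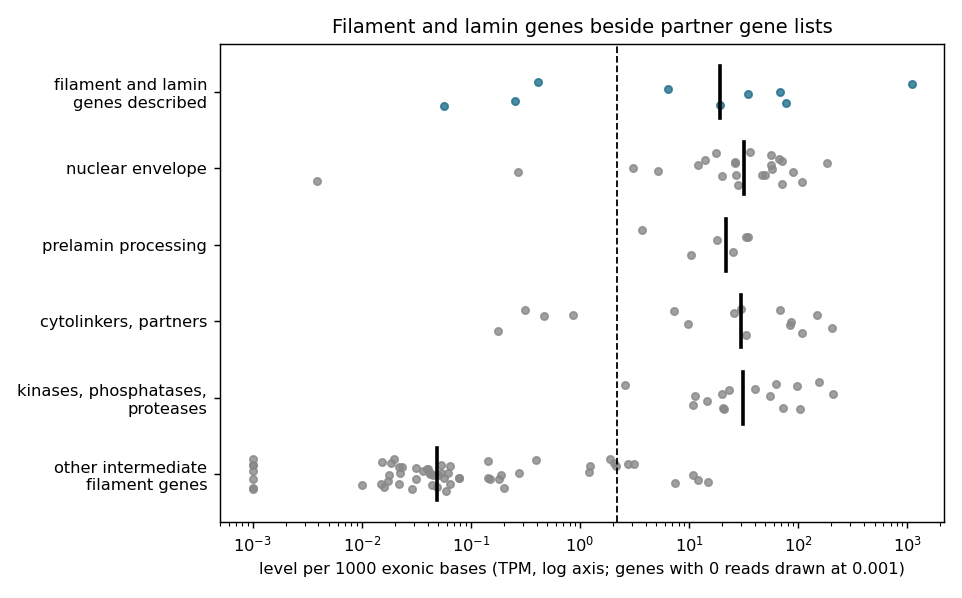
Level per 1000 exonic bases (TPM, log axis) of each gene in the 9 filament and lamin genes (blue, top) and in 5 lists of related genes (grey); thick lines are medians, the dashed line is the median of protein-coding genes, and genes with 0 reads are drawn at 0.001. The 9 genes have a median of 19.2 TPM, the nuclear envelope list 32.1 TPM and the other intermediate filament genes 0.0487 TPM.

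Markers of the cell types in which these filament genes are best known were read beside them; of all protein-coding genes 67.6% had at least 10 reads. All 8 fibroblast markers had at least 10 reads, led by Fn1, and their sum was 20560 CPM. All 8 smooth muscle markers did too, with a sum of 9110 CPM, of which Acta2 gave 6360 CPM and Tagln 2185 CPM. Cnn1 had 250 CPM, Myh11, the smooth muscle myosin gene, 29.4 CPM and Synpo2 5.96 CPM. Beside Des, 4 of 8 skeletal or cardiac muscle markers had at least 10 reads (sum 14.7 CPM). Tnnt2 had 272 reads, Acta1 270 and Ttn 200, while Myod1, Myog and Ckm had 2, 3 and 1. Beside Nes, 7 of 8 endothelial markers had at least 10 reads (sum 285 CPM, nearly all Kdr and Flt1), with Pecam1 at 13, Cdh5 at 17 and Cldn5 at 0 reads. In the pericyte list 5 of 8 had at least 10 reads (sum 90.8 CPM), led by Mcam. Notch3 had 532 reads and Cspg4 457, while Rgs5 had 6 and Higd1b 0. Beside Gfap, 4 of 8 astrocyte markers had at least 10 reads (sum 5.58 CPM). Sox9 led them at 125 reads, with Slc1a3 at 93 and Gjb6 at 0. Of the Schwann and enteric glia markers, 5 of 8 had at least 10 reads (sum 78.0 CPM, of which Mbp gave 70.2 CPM). Erbb3 had 293 reads, and Sox10 and S100b had 5 each. Beside Prph, 7 of 8 neuron markers had at least 10 reads (sum 44.7 CPM), led by Tubb3 at 1501 and Uchl1 at 761, with Snap25 at 4. At 50 reads the counts were 2 for neuron, 3 for endothelial, 3 for Schwann and enteric glia and 2 for astrocyte markers. The background falls at that limit too, since 43.0% of protein-coding genes had fewer reads than the 58 of Synm.

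The stellate cell list, which leaves out the filament genes themselves, had 6 of 8 markers with at least 10 reads (sum 86.1 CPM). That is near the share of all protein-coding genes, 67.6%, which also stands beside the other counts at 10 reads given here. Plin2, a lipid droplet gene, led the stellate list at 45.1 CPM, followed by Hgf at 32.9 CPM. Lrat, which stores vitamin A as esters, had 9 reads and Ntf3 6. Among other types, 7 of 8 mesothelial markers had at least 10 reads (sum 1268 CPM), led by Bnc1 at 472 CPM, with Calb2 at 3 reads. For epithelium 8 of 8 did (sum 40.8 CPM, 6 of 8 at 50 reads), a list that includes the keratins Krt18, Krt19, Krt7 and Krt8. Krt18 led it at 11.8 CPM, while Cdh1 had 276 reads, Epcam 61, Esrp1 40 and Cldn4 36. For leukocytes 7 of 8 had at least 10 reads (sum 21.9 CPM, 4 of 8 at 50 reads). Lyz2 led them at 483 reads, with Csf1r at 268, Cd68 at 235 and Itgam at 84. Ptprc had 26 reads and Cd3e 3. Mesothelial cells also express vimentin. The part of any of these cell types in the levels of the 9 genes was not tested.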

How the data were processed

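Total RNA of 1 culture was extracted with TRIzol and, per the labels' protocols, made into a SOLiD library. The authors' deposited signal gives 1 value for each of 24214 rows. The submitters' processing notes name DESeq and mm10 without a role. No source used here gives the aligner, counter, strand setting, annotation release or filters. All 20976 values above 0 were whole multiples of 1.18 within 0.006, so whole reads were recovered as the deposited value times a size factor of 0.850. The design had assumed descriptive measures on reads, which were taken from the recovered reads. A count test needs replicates and was not run.

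Rows with a copy suffix (1073) or a repeated name were summed, which left 23386 genes; 20559 genes count as protein-coding because they carry an NM accession. One read is 0.0190 CPM. Exonic length was the union of GENCODE M21 exons (GRCm38, which mm10 denotes), found for 99.3% of coding genes. Coding length was the union of annotated coding bases, in place of a protein table. Intervals are exact Poisson for levels, Clopper-Pearson for shares, and from the binomial split of both counts for ratios; reads are not independent molecules. Members and lists were chosen with earlier results of these data known. Every member is described; of each list the highest and lowest member by CPM and up to 4 others with a defining role are eligible for naming, and a few further ones were chosen after their values were seen. A few sequence results are not reported here. Read recovery and intervals were tested on simulated data. Alternatives were other lengths, totals, detection limits and a pseudocount of 5 in place of 0.5. Tools were scipy 1.17.1, numpy 2.4.6, matplotlib 3.10.9 and pandas 2.3.3 in Python 3.11.15.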

Additional observations from a re-analysis of the deposited data

How the results depend on the processing

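There was 1 library and so no replicate to leave out. No paired analysis was possible because there is a single sample. Of the 9 genes, the number detected was 8 at 10 reads, 9 at 1 read and 7 at 50 reads. The share of all protein-coding genes was taken at 10 reads only (67.6%). Their median level, 5.52 as log2(CPM + 0.5), was 5.66 with a pseudocount of 5, 5.03 without Vim, 5.84 with only genes of at least 10 reads, 5.94 with a total that leaves out the 100 most abundant genes, 5.64 with a total of protein-coding genes and 4.30 after division by exonic length. The other totals raise every gene by 0.42 and 0.12 log2 units of CPM before 0.5 is added, and by less after it. The ratio of Vim to Lmna, the gene after it in order, was 14.2 per exonic base, 16.7 per coding base, 11.5 by reads and 16.6 with the longest matched transcript. The Vim share of cytoplasmic reads, 96.8%, was 96.3% per exonic base, 97.4% per coding base and 97.9% with the matched transcript. The Lmna share of lamin reads, 61.2%, was 46.8%, 58.9% and 59.8% under the same lengths. By reads, Synm and Prph changed places. The matched-transcript length, the totals for single genes and the detection limits for lists were chosen after the data were seen. At 1 or 50 reads, 25 counts of detected list genes stayed within 1.5 times of that at 10 reads and 11 did not. Depth limits Gfap, Prph and Synm, and the 1 library limits every value.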
